A study of Mus musculus with 6 samples.

Results

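Interferon response genes were examined in CCR6+ group 3 innate lymphoid cells (ILC3s) of the mouse small intestine, as a set of 57 named genes out of 19938 genes tested. The set holds interferon receptors, interferon regulatory and STAT transcription factors, interferon-induced antiviral and GTPase genes, and antigen transport genes. A probe set is the group of array probes that reports 1 transcript. Each member was read from its probe set with 1 gene name and, where it had several, from the one with the highest mean. In this way 52 members were measured. Gbp2, Igtp, Irgm2 and Isg15 lay on probe sets that name more than 1 gene, and Ifi44 was not analysed here.

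Expression was profiled on Affymetrix arrays, 1 array per sample. The control group held 3 samples from adult C57BL/6 mice of genotype Tnfsf11fl/fl. The RANKL-deficient group held 3 samples from adult C57BL/6 mice that carried the Tnfsf11fl/fl alleles together with a Cre transgene. Both groups carry the floxed Tnfsf11 alleles, Tnfsf11 being the gene of the cytokine RANKL, while a Cre is named for the RANKL-deficient mice alone, so an effect of Cre and one of the deletion cannot be told apart. The cells were sorted from collagenase-digested lamina propria without culture, and 2 ng of total RNA was amplified per sample. The comparison asks how Cre deletion of Tnfsf11 bears on the transcripts of CCR6+ ILC3s.

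Type I interferons bind the receptor pair IFNAR1 and IFNAR2 and activate a complex that holds STAT2 and IRF9, which binds the interferon-stimulated response element (ISRE). Interferon gamma binds IFNGR1 and IFNGR2 and acts through STAT dimers on the gamma-activated site (GAS). The induced genes sense viral RNA, block viral replication, attack intracellular pathogens with GTPases, and load peptides onto MHC class I. In the intestine, microbes and viruses can keep a low interferon tone even without infection.

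Promoters of the members were read from RefSeq (build GRCm38.p6), from 250 bases before to 50 bases after each gene's start, and 44 of the 57 members had an entry. The ISRE core was searched as GAAA, any 2 bases, GAAA and the GAS as TTCNNNGAA, on both strands, and matches could overlap. An ISRE core lay in 22 of the 54 member promoters (40.7%), against 3.44% of all 32851 promoters. A GAS lay in 17 of the 54 (31.5%), against 8.30% of all. The members were chosen as interferon genes, so this describes the list and is no result of the arrays.

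Stretches of 6 promoters are printed for genes taken up below, chosen with their differences known. Capitals mark the ISRE cores and GAS matches, and bases are counted from the gene start. Gbp7, Igtp and Irgm2 encode GTPases, Eif2ak2 the RNA-activated kinase PKR, and Oasl1 and Oasl2 relatives of oligoadenylate synthetase with differences of opposite sign. Igtp and Irgm2, which share a probe set, were added after its values were seen.
Gbp7, bases -120 to -1, chr3:142530216-142530335, plus strand: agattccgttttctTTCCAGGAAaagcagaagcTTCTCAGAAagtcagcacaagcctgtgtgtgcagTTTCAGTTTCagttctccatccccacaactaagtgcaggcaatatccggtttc
Igtp, bases -100 to -1, chr11:58199456-58199555, plus strand: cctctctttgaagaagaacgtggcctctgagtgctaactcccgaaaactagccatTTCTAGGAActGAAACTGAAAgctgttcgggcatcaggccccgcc
Irgm2, bases -100 to -1, chr11:58214877-58214976, plus strand: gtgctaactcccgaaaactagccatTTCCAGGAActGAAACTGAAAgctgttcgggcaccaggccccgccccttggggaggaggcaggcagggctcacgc
Eif2ak2, bases -190 to -1, chr17:78882573-78882762, minus strand: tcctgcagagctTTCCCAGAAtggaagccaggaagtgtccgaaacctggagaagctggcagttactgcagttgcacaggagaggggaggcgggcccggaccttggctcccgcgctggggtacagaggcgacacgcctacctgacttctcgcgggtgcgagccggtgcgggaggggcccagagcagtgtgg
Eif2ak2, bases 1 to 30, chr17:78882543-78882572, minus strand: gaaggcggagtccgccggGAAAACGAAAca
Oasl1, bases -120 to -1, chr5:114923120-114923239, plus strand: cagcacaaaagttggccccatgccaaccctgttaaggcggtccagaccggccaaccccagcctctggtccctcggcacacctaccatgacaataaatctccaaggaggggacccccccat
Oasl2, bases -120 to -1, chr5:114896814-114896933, plus strand: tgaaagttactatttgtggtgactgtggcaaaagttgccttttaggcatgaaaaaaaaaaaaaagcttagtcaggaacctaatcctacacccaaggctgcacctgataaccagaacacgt

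The Gbp7 stretch holds a GAS from base -106, another from base -87, and an ISRE core from base -53. In Igtp a GAS from base -45 stands just ahead of an ISRE core from base -34, and Irgm2 repeats that pair at -75 and -64. The longest run shared by the Igtp and Irgm2 stretches was 29 bases. Eif2ak2 had a GAS from base -178 and its ISRE core after the start, from base 19. Neither motif was found in the full windows of Oasl1 and Oasl2. The printed promoters with both motifs belong to genes whose probe sets had differences above 0. Both motifs also lay in the promoters of Ifitm3, Bst2, Irf2 and Oas1a, which are not printed. These genes had differences below 0, of -0.77, -0.27, -0.15 and -0.030. A match is a description of letters, not a binding site.

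The array medians (log2) were 5.12 to 5.15 in control and 5.07 to 5.10 in RANKL-deficient cells, close but without overlap. Control array 1 had the lowest mean correlation with the others (0.960 over genes, against 0.970 to 0.977 on the rest), and control array 2 the next. Tnfsf11 measured 8.76, 8.41 and 8.25 on control arrays 1 to 3 and 8.36, 8.65 and 8.52 on RANKL-deficient arrays 1 to 3, a log2 difference of 0.035 (SE 0.17). By exact permutation (two-sided) p was 1, and 0.1 is the smallest p this design allows. The groups overlapped. Where its probes lie relative to the deleted part is not stated in the labels, so the labels are not checked by it. The cells carried surface and cytokine receptors of ILC3s: Il7r measured 12.23 to 12.32 over the 6 arrays, Kit 10.75 to 10.93, Il23r 10.40 to 10.89 and Ccr6 8.59 to 9.80. Of the 15 measured ILC3 and lymphoid tissue inducer markers, 9 had a difference above 0, and their mean was 9.52 to 9.95 on control and 9.85 to 9.94 on RANKL-deficient arrays. In that list Cxcr5 and Cd4 measured higher in RANKL-deficient cells without overlap, by 0.85 and 0.69, and Ltb, which encodes lymphotoxin beta, differed by -0.42. Their part in the member differences was not tested.

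No interferon response gene passed the test, and the group means of 42 of the 52 measured members differed by less than 0.5 on the log2 scale. Of the members with the smallest p, the kinase gene Eif2ak2, the sensor gene Zbp1 and the GTPase gene Iigp1 measured higher on all 3 RANKL-deficient arrays than on any control array, by 1.55-fold to 2.03-fold. The values are RMA log2 expression, in which 1 unit is a 2-fold step, and differences are RANKL-deficient minus control. The threshold was an adjusted p under 0.05 (limma, Benjamini-Hochberg over all genes), which 0 of 52 members passed, against 0.00502% of all genes, which is 1 gene. The smallest adjusted p among the members was 0.306. At an unadjusted p under 0.05 there were 5 members higher (9.62% of 52, against 4.25% of all genes) and 1 lower (1.92%, against 3.90%). Of all genes, 39.5% had a difference above 0, and of the members 31 of 52. After cyclic loess scaling these were 50.0% of all genes and 32 of 52 members. The share depended on level: among genes with a mean above that of the median gene, 54.7% and 27 of 42 members were above 0. In that part, 9.52% of the members were at an unadjusted p under 0.05, against 9.21% of the genes. The median member difference was 0.074, against -0.054 for all genes. These medians were 0.030 and -0.016 after quantile normalization, 0.066 and 0.0002 after cyclic loess, and 0.12 and -0.0027 after median centring. Among genes above the median gene they were 0.16 and 0.033.

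The groups did not overlap for 5 members higher and 2 lower in RANKL-deficient cells, 13.5% of the members against 14.4% of all genes, so this count was near the background. By direction, 5 was 9.62% of the members against 5.28% of all genes, and 2 was 3.85% against 9.08%. Gbp7 and Iigp1 were the 2 members with a difference of 1 or more. For 38 members the 95% confidence interval stayed within 1 log2 unit of 0 on either side, and for 8 within 0.5. The count at an unadjusted p under 0.05 was 11 (21.2%) without control array 3, where the share of all genes was 14.1%, in place of 6 (11.5%, against 8.15%). Whether the replicates are separate mice is not stated, so the p-values measure a spread between samples that may be technical. In sorted populations, fewer cells of a type and less RNA per cell cannot be told apart.

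**Figure D1:**
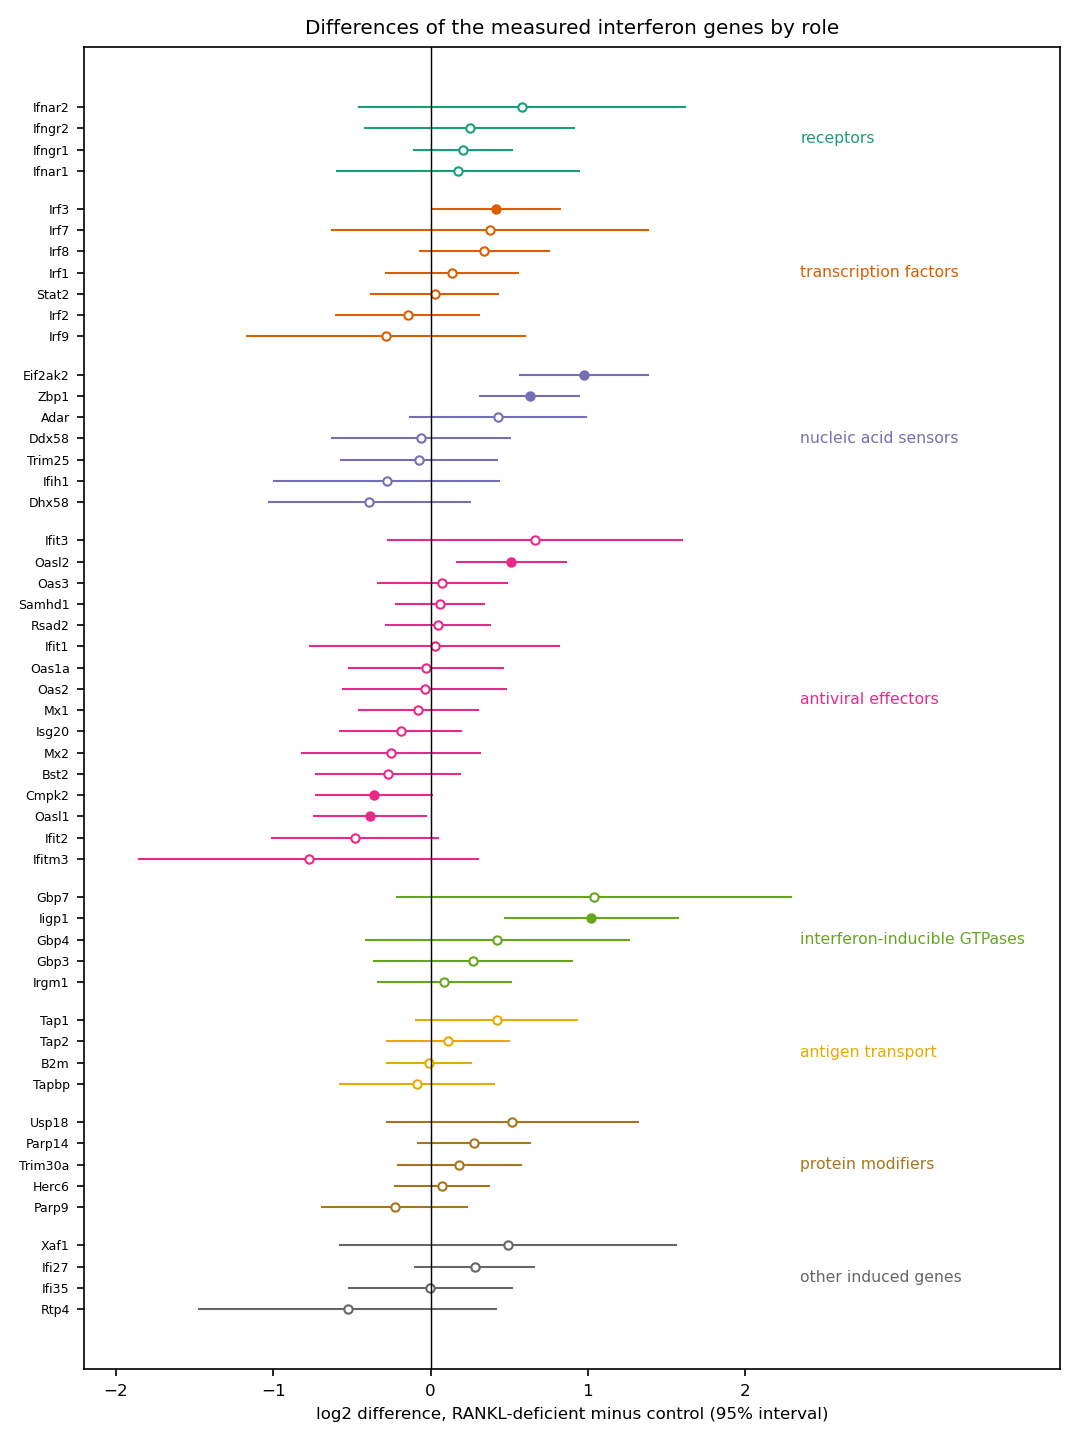
Log2 difference of each of the 52 measured members (x axis, RANKL-deficient minus control) with its 95% confidence interval from limma, 3 arrays per group, ordered by role. Filled points mark the 7 members whose groups did not overlap, and the intervals of the 45 other members cross 0, as does that of Cmpk2 among the 7. Gbp7, Iigp1 and Eif2ak2 have the largest differences.

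The 4 interferon receptor chains all had differences above 0, from 0.17 to 0.58, also after each of the 3 rescalings, and none was at an unadjusted p under 0.05. Ifngr1, the ligand-binding chain for interferon gamma, measured 10.38, 10.60 and 10.27 on control arrays 1 to 3 and 10.64, 10.60 and 10.63 on the RANKL-deficient arrays. The groups met at 10.60, and the difference was 0.21 (SE 0.13, limma adjusted p = 0.705). It was 0.037 after quantile normalization, 0.11 after cyclic loess and 0.26 after median centring. The median of the 4 chains was 0.23, and it was 0.034 without control array 1 and 0.44 without control array 2. Ifnar2, a chain of the type I receptor, measured 7.27, 8.77 and 8.99 in control and 8.61, 8.98 and 9.19 in RANKL-deficient cells. Control array 1 lay more than 1 unit below the rest, and without it the difference went from 0.58 to 0.045. Its partner Ifnar1 differed by 0.17, and by -0.20 without control array 1. Ifngr2, the signalling chain for interferon gamma, differed by 0.25 (0.022 without control array 1). Ifnar2, Ifnar1 and Ifngr2 stand side by side in the genome together with Il10rb, a chain of the interferon lambda receptor. Il10rb measured 5.49, 6.42 and 5.59 in control and 6.71, 6.74 and 6.33 in RANKL-deficient cells, with a difference of 0.76 (SE 0.27, adjusted p = 0.582). The value of control array 2 exceeded that of RANKL-deficient array 3, so the groups overlapped.

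Among the 7 transcription factors, 5 had differences above 0 (4 after quantile normalization), with a median of 0.14. The median was 0.0091 without control array 2 and 0.023 without RANKL-deficient array 3, and it was 0.24 without control array 1. Irf3, the factor that switches on interferon beta after RNA or DNA sensing, measured 5.92, 6.14 and 6.37 in control and 6.79, 6.45 and 6.44 in RANKL-deficient cells. The lowest RANKL-deficient array lay just above the highest control array, and the difference was 0.42 (SE 0.17, 1.34-fold, adjusted p = 0.604). Irf2, which represses interferon-induced promoters, measured 8.83, 8.81 and 9.10 in control and 9.09, 8.78 and 8.43 in RANKL-deficient cells, with overlapping groups and a difference of -0.15 (0.023 without RANKL-deficient array 3). Irf8, known from myeloid and dendritic cell development, differed by 0.34 with 1 control array, 2, inside the RANKL-deficient range.

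Irf7, the amplifier of type I interferon, showed the widest scatter of these factors within RANKL-deficient cells. It measured 5.71, 6.04 and 5.61 in control and 5.26, 6.14 and 7.10 in RANKL-deficient cells, so its difference of 0.38 (SE 0.43) rested on RANKL-deficient array 3, without which it was -0.088. Irf9 and Stat2, the partners in the type I complex, differed by -0.28 and 0.026. Irf9 was at 0.0091 without control array 2 and at -0.72 without control array 1, and Stat2 was at -0.052 without RANKL-deficient array 2. Irf1, the factor early in the interferon gamma response, differed by 0.14 on the probe set used and by 0.13 on its other probe set, and the first value was -0.018 without control array 2.

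Nucleic acid sensors split into genes with higher and lower values, 3 above and 4 below 0, also after each rescaling. Eif2ak2 encodes PKR, a kinase that halts translation when it binds double-stranded RNA. It measured 5.64, 5.55 and 5.52 in control and 6.26, 6.86 and 6.51 in RANKL-deficient cells. The control arrays lay close together (SD 0.061, n = 3) and every RANKL-deficient array lay above them. The difference was 0.97 (SE 0.17, 1.97-fold, 95% interval 0.57 to 1.38), with an unadjusted p of 0.000727 and an adjusted p of 0.306 by limma. Zbp1, which senses Z-form nucleic acids and can trigger necroptosis, measured 7.31, 7.08 and 7.26 in control and 7.95, 7.88 and 7.71 in RANKL-deficient cells. Here too the groups did not overlap, and the difference was 0.63 (SE 0.13, 1.55-fold, adjusted p = 0.377).

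The cytosolic RNA helicases had differences below 0, none at an unadjusted p under 0.05. Ddx58, which encodes RIG-I, measured 8.02, 8.52 and 8.85 in control and 8.62, 8.47 and 8.11 in RANKL-deficient cells, with a difference of -0.060 that was 0.13 without control array 3. Ifih1, which encodes MDA5, differed by -0.28 (-0.0075 without control array 3), and Dhx58, which encodes LGP2, by -0.39 (-0.11 without control array 1). Trim25, the ubiquitin ligase that acts on RIG-I, differed by -0.074 (0.063 without control array 3). The RNA editor Adar, which marks self RNA, differed by 0.43 (SE 0.24) and by 0.18 without control array 1.

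**Figure D2:**
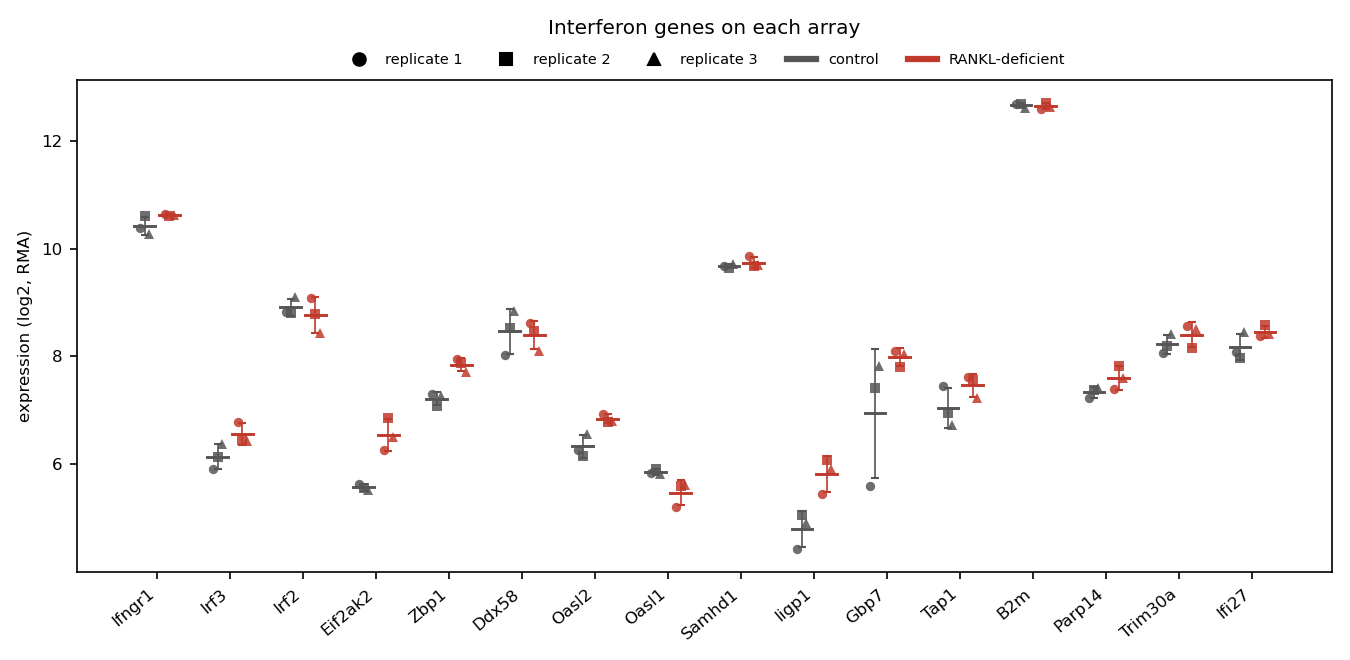
Log2 RMA expression (y axis) of 16 members on each of the 6 arrays, grey for control and red for RANKL-deficient cells, with symbols for the replicate number, a bar for the group mean and error bars of 1 SD (n = 3). Eif2ak2, Zbp1, Oasl2, Iigp1 and Irf3 have all red points above all grey points, Oasl1 has all red points below, and Gbp7 has 1 low control array at 5.59.

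Antiviral effectors, the gene group by which a type I response is usually recognised, showed no shared direction. Of the 16, 6 had a difference above 0 (7 after quantile normalization or cyclic loess, 8 after median centring), with a median of -0.058. Of these genes 9 (Ifit1, Ifit2, Ifit3, Mx1, Mx2, Oas2, Oas3, Rsad2 and Cmpk2) had means below the median gene (5.12) in each group. No background level was measured, so at such values a difference may be understated. Rsad2, which encodes viperin, measured 4.71, 4.47 and 4.78 in control and 4.69, 4.83 and 4.59 in RANKL-deficient cells, with a difference of 0.048 (95% interval -0.28 to 0.38) that was -0.043 without control array 2. The groups lay on top of each other. Mx1, of which C57BL/6 mice carry a defective allele, differed by -0.077 and Mx2 by -0.25.

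The Ifit genes encode proteins that bind foreign RNA. Ifit1, whose promoter held 2 ISRE cores, measured 3.95, 4.90 and 3.95 in control and 3.92, 4.12 and 4.84 in RANKL-deficient cells. A single array of each group was high, and the difference was 0.026 (SE 0.33), from -0.25 without RANKL-deficient array 3 to 0.34 without control array 2. Ifit3, also with 2 ISRE cores, differed by 0.66 (SE 0.40), which was 0.24 without RANKL-deficient array 2. Ifit2, in the same gene cluster, differed by -0.48 (SE 0.22).

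The Oasl genes went in opposite directions. Oasl2 measured 6.26, 6.16 and 6.57 in control and 6.94, 6.78 and 6.81 in RANKL-deficient cells, and the groups did not overlap. The difference was 0.51 (SE 0.15, 1.43-fold, adjusted p = 0.492). Oasl1, a translational repressor of Irf7 and a genomic neighbour of Oasl2, measured 5.84, 5.92 and 5.81 in control and 5.21, 5.59 and 5.62 in RANKL-deficient cells. All 3 RANKL-deficient arrays lay below the control arrays, a difference of -0.39 (SE 0.15, adjusted p = 0.599). The difference between the Oasl1 and Oasl2 changes was not tested. The synthetases Oas1a, Oas2 and Oas3, which start the RNase L pathway, differed by -0.030, -0.038 and 0.075.

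Samhd1, which depletes nucleotides needed by viruses, measured 9.68, 9.64 and 9.71 in control and 9.86, 9.67 and 9.69 in RANKL-deficient cells, with a difference of 0.061 (95% interval -0.22 to 0.34) that was -0.052 after quantile normalization. Bst2, or tetherin, which holds budding virions at the membrane, differed by -0.27 and Isg20, an RNA exonuclease, by -0.19. Cmpk2, a mitochondrial nucleotide kinase, measured 3.80, 4.07 and 3.62 in control and 3.48, 3.36 and 3.59 in RANKL-deficient cells, with no overlap and a difference of -0.36 (SE 0.16). Ifitm3, which blocks viral entry, had the lowest difference of all members, -0.77 (SE 0.46). It measured 8.74, 7.94 and 7.83 in control and 6.37, 7.99 and 7.83 in RANKL-deficient cells. A single low RANKL-deficient array, 1, set most of this difference, which was -0.26 without it.

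The interferon-inducible GTPases had a median difference of 0.42, and all 5 measured members had a difference above 0 (4 of 5 after quantile normalization). The median was 0.27 without control array 2 and 0.16 without control arrays 1 and 2 together, and it was 0.63 without RANKL-deficient array 2. These proteins coat and break the vacuoles of intracellular pathogens. Iigp1, an immunity-related GTPase, measured 4.42, 5.06 and 4.90 in control and 5.44, 6.08 and 5.92 in RANKL-deficient cells. The groups did not overlap, and the difference was 1.02 (SE 0.23, 2.03-fold, adjusted p = 0.415). In control cells its mean was under that of the median gene, so the fold may be understated. The guanylate-binding protein Gbp7 measured 5.59, 7.41 and 7.83 in control and 8.11, 7.80 and 8.05 in RANKL-deficient cells. Control array 3 lay inside the RANKL-deficient range and control array 1 far below, and the difference of 1.04 (SE 0.53, adjusted p = 0.650) was 0.36 without control array 1. Gbp4 differed by 0.42, which was 0.20 without control array 2 and 0.82 without control array 1. Gbp3 differed by 0.27, which was 0.018 without control array 1. Irgm1, a regulator of the other immunity-related GTPases, differed by 0.088, which was -0.060 without control array 2.

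The 3 probe sets that name several GTPases also had differences above 0 without overlap, as did 5.28% of all genes. They cannot be assigned to 1 gene and were left out of the member counts. The probe set of Irgm2 and Igtp, whose promoters hold neighbouring GAS and ISRE matches, measured 9.26, 8.90 and 8.84 in control and 9.70, 9.99 and 9.89 in RANKL-deficient cells. No arrays overlapped, and the difference was 0.86 (SE 0.16, adjusted p = 0.314), and between 0.78 and 0.99 with any 1 array left out. The probe set of Gbp2 and Gbp2b measured 6.01, 7.14 and 7.22 in control and 7.75, 7.55 and 7.66 in RANKL-deficient cells. It too did not overlap, with a difference of 0.87 (SE 0.31, adjusted p = 0.587) that was 0.48 without control array 1. A probe set that names Gbp4 and 5 other Gbp genes measured 8.16, 7.82 and 7.84 in control and 8.79, 8.61 and 8.66 in RANKL-deficient cells, with a difference of 0.75 (SE 0.14, adjusted p = 0.320). With shared probe sets allowed for the members, 8 of 8 GTPases had a difference above 0 with a median of 0.86, of which Irgm2 and Igtp share 1 value. In that count Gbp4 was read from the shared probe set, at 0.75, in place of its own, at 0.42 with overlap. The shared probe set of Isg15 went the other way, at -0.21 (SE 0.22). The one of Oas1a with Oas1g differed by -0.089, and those of Tapbp with Rps3a1 by -0.016 and -0.028, all with overlap.

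**Figure D3:**
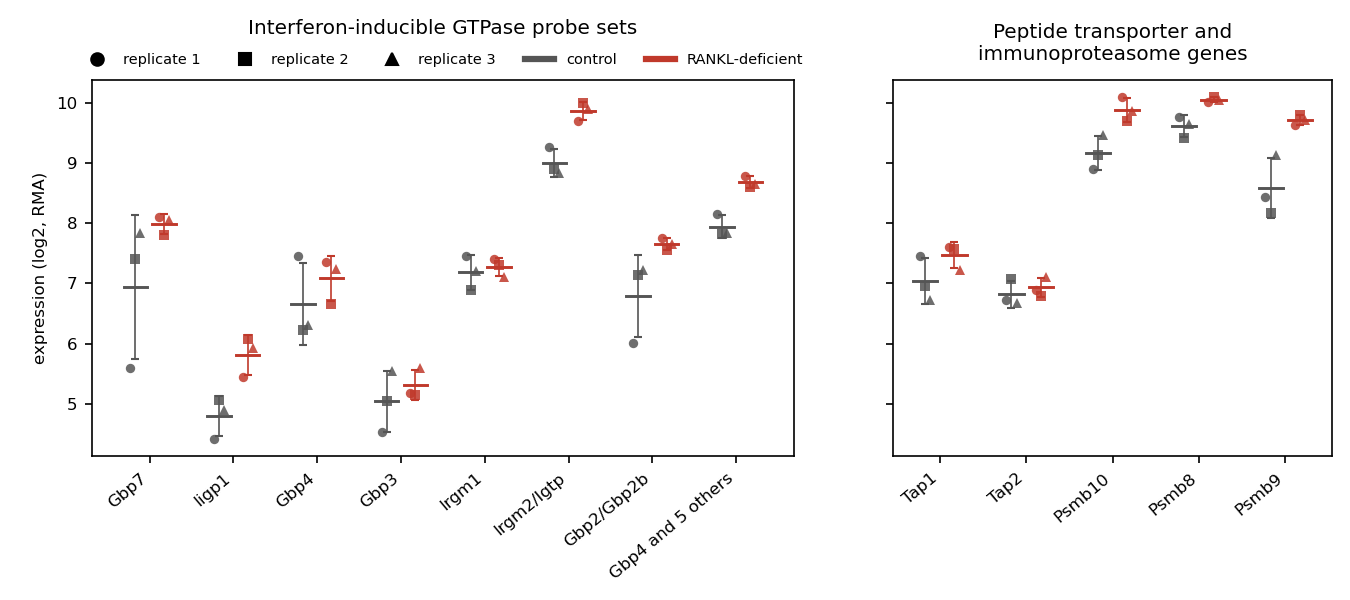
Log2 RMA expression (y axis) on each array for the GTPase probe sets, left, and for the peptide transporter genes Tap1 and Tap2 with the immunoproteasome genes Psmb8, Psmb9 and Psmb10, right, with means and error bars of 1 SD (n = 3). The shared probe sets of Irgm2 and Igtp, of Gbp2 and Gbp2b, and of Gbp4 with 5 others have all red points above all grey points, as do the 3 immunoproteasome genes, while Tap2 and Irgm1 overlap.

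Antigen transport genes differed little, 2 of 4 above 0 (3 after median centring), with a median of 0.051. Tap1, a subunit of the transporter that carries peptides into the endoplasmic reticulum, measured 7.46, 6.95 and 6.72 in control and 7.61, 7.57 and 7.22 in RANKL-deficient cells. Control array 1 lay within the RANKL-deficient range, and the difference was 0.42 (SE 0.22, adjusted p = 0.653). It was 0.26 without control array 3 and 0.63 without control array 1, and in 4 of the 17 alternatives its unadjusted p was under 0.05. Its partner Tap2 differed by 0.11 and Tapbp, the chaperone tapasin, by -0.086. B2m, the light chain of MHC class I, measured 12.69, 12.68 and 12.62 in control and 12.60, 12.71 and 12.63 in RANKL-deficient cells, with a difference of -0.010 (95% interval -0.28 to 0.26) whose sign turned after median centring (0.041).

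Modifiers of proteins by ubiquitin-like tags or ADP-ribose had 4 of 5 differences above 0 (3 after quantile normalization). Parp14, an ADP-ribosyltransferase, measured 7.22, 7.37 and 7.41 in control and 7.39, 7.83 and 7.60 in RANKL-deficient cells. RANKL-deficient array 1 lay within the control range, and the difference was 0.28 (SE 0.15, adjusted p = 0.676). Trim30a, a ubiquitin ligase, measured 8.07, 8.19 and 8.42 in control and 8.56, 8.15 and 8.51 in RANKL-deficient cells, with overlap and a difference of 0.18. Usp18, which removes ISG15 and damps IFNAR signalling, differed by 0.52 (SE 0.34), Herc6, a ligase for ISG15, by 0.072, and Parp9 by -0.23.

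Of the remaining induced genes, Ifi27 measured 8.09, 7.98 and 8.45 in control and 8.38, 8.58 and 8.41 in RANKL-deficient cells. Control array 3 lay inside the RANKL-deficient range, and the difference was 0.28 (SE 0.16, adjusted p = 0.684). Xaf1, a pro-apoptotic gene, differed by 0.49, and by -0.027 without control array 1, where it was at 5.39. Rtp4 differed by -0.53 and was high on control array 2 at 8.04. Ifi35 differed by -0.0013.

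Single arrays set several of these values. Control array 1 lay more than 1 unit below the median of the other 5 arrays for 5 members, Gbp7, Ifnar1, Ifnar2, Iigp1 and Xaf1, and was the lowest array for 16 of 52 members. It was the lowest for 17.9% of all genes. The same array was the highest for 33.4% of all genes, and for 8 of the members. RANKL-deficient array 2 lay more than 1 unit above the median of the others for Eif2ak2, Ifit3 and Iigp1. RANKL-deficient array 3 stood out in the same way for Irf7. The mean over the 52 members was 6.44, 6.67 and 6.62 on control arrays 1 to 3 and 6.62, 6.75 and 6.71 on the RANKL-deficient arrays, and the groups overlapped at control array 2. The median SD within a group was 0.28 in control and 0.23 in RANKL-deficient cells over members, against 0.22 and 0.15 over all genes.

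**Figure D4:**
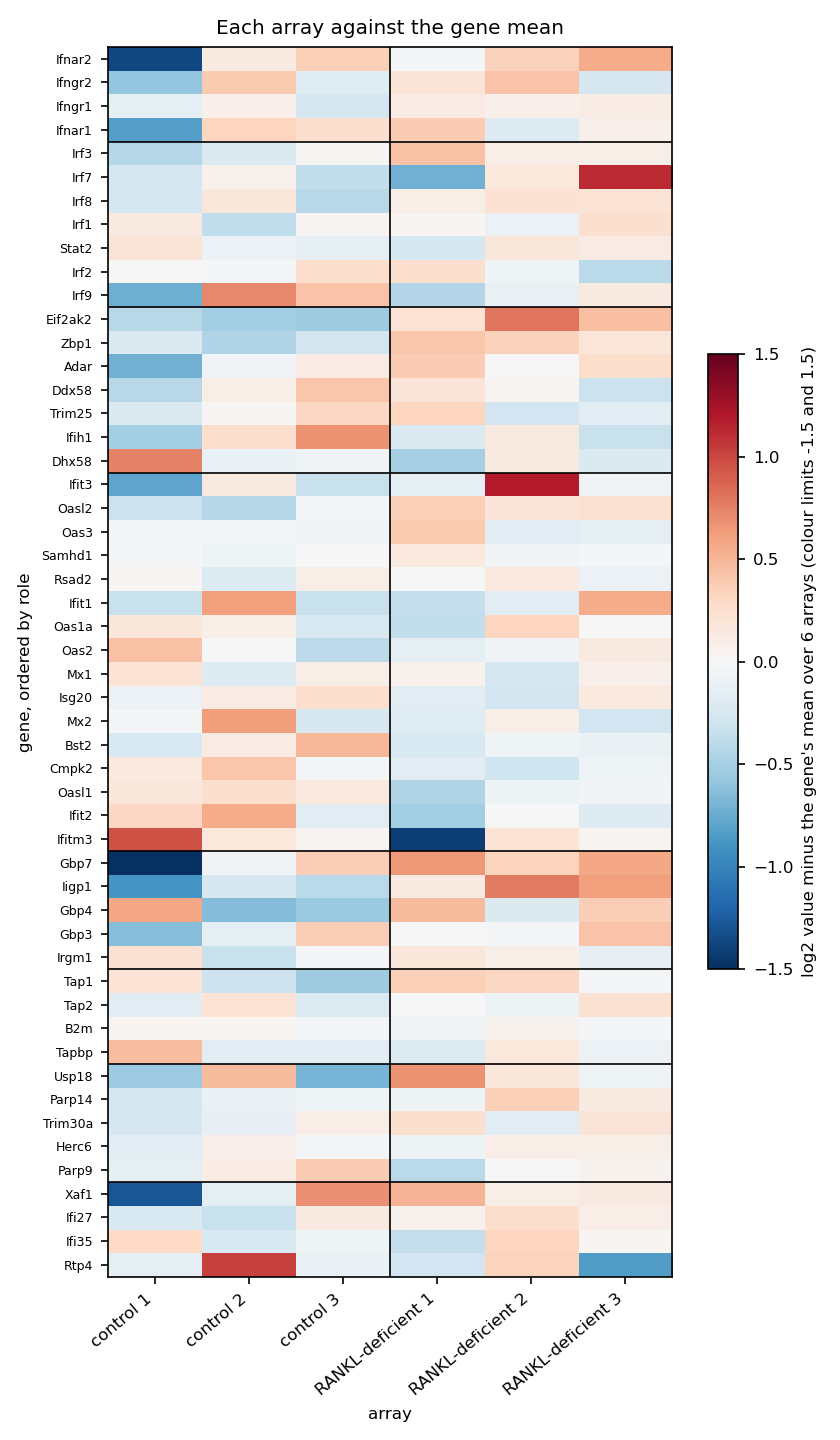
Log2 value of each measured member (rows, ordered by role, black lines between roles) on each array (columns) minus the gene's mean over the 6 arrays, blue below and red above, colour limits -1.5 and 1.5. Rows that are blue on all control arrays and red on all RANKL-deficient arrays are few (Eif2ak2, Zbp1, Iigp1 among them), and the darkest blue cell is Gbp7 on control array 1.

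The 3 members with the smallest p kept that side of the unadjusted threshold under every one of 17 alternatives run. These were Eif2ak2, Zbp1 and Iigp1. Without control arrays 1 and 2 together, their differences were 1.02, 0.58 and 0.92. Oasl2 was below 0.05 in 16 of the 17, Oasl1 in 8 and Irf3 in 7. No member passed the adjusted threshold under any of the 17, where the smallest adjusted p was 0.206, for the fit without control array 3.

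The motif content of the promoter went with little difference between medians. Of the measured members with a promoter entry, 17 held an ISRE core and 22 did not. The table used held no entry for Zbp1 and Iigp1, so both are outside this comparison. Gbp2, Igtp, Irgm2 and Isg15 held ISRE cores but lay on shared probe sets, so they are outside it too. Those probe sets differed by 0.87 for Gbp2, 0.86 for Igtp with Irgm2, and -0.21 for Isg15. The median difference was 0.026 in the 17 with an ISRE core (range -0.77 to 1.04) and 0.16 in the 22 without (range -0.48 to 0.58). For the GAS, 15 members held a match, with a median of 0.061, and 24 did not, with a median of 0.074. These are descriptions over genes that share the same arrays.

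Genes around the interferon pathway were grouped in 5 lists. None of their genes passed the adjusted threshold. In the class I peptide loading and immunoproteasome list, 10 of 12 measured genes had a difference above 0, with a median of 0.32, and 4 were higher at an unadjusted p under 0.05 (0 lower). Over all genes these shares were 4.25% higher and 3.90% lower, against which the counts of each list are to be read. The class I list had a median level of 9.55 (log2). Of the genes above the median gene, 54.7% had a difference above 0. Psmb9, an immunoproteasome subunit encoded beside Tap1, measured 8.44, 8.17 and 9.14 in control and 9.63, 9.79 and 9.72 in RANKL-deficient cells. The RANKL-deficient arrays lay close together above all control arrays, a difference of 1.13 (SE 0.25, adjusted p = 0.396). The class I gene H2-Q4 differed by 0.75 and the subunit Psmb10 by 0.71, again without overlap. Psmb8, which stands between Tap1 and Tap2, differed by 0.44.

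Among 15 measured adaptors and kinases upstream of interferon, 11 had a difference above 0, with a median of 0.13, and 3 were higher at an unadjusted p under 0.05 (0 lower). Sting1, the adaptor for DNA sensing, measured 8.38, 8.41 and 8.88 in control and 9.20, 9.30 and 9.12 in RANKL-deficient cells. The groups did not overlap, and the difference was 0.65 (SE 0.17, adjusted p = 0.436). Mavs, the mitochondrial adaptor of RIG-I and MDA5, measured 5.86, 6.50 and 6.76 in control and 7.91, 6.95 and 7.61 in RANKL-deficient cells, with a difference of 1.12 (SE 0.31, adjusted p = 0.472). The ubiquitin ligase Traf6 differed by 0.89, and by 0.43 without control array 1, where it was at 4.82.

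JAK kinases and feedback inhibitors had 8 of 12 genes above 0, with 1 higher and 0 lower at an unadjusted p under 0.05. Cish, a STAT5-induced inhibitor, differed by 0.75, Socs1, which blocks interferon receptor signalling, by 0.43, and the STAT inhibitor Pias1 by -0.52. Of the 11 measured interferon ligands and type III receptor genes, 2 had a difference above 0, and 1, Il10rb, was at an unadjusted p under 0.05. Ifnb1 measured 3.41 to 3.94 and Ifng 4.01 to 4.46 over the 6 arrays, below the median gene, and the groups overlapped. The ligand genes Ifnk and Ifna5 differed by -0.43 and -0.20. Of 49 other interferon-induced genes, 31 had a difference above 0 with a median of 0.077, and 3 were higher and 3 lower at an unadjusted p under 0.05. Without overlap, 2 of the 49 were higher and 6 lower, where the shares of all genes were 5.28% and 9.08%. Gbp5, a further guanylate-binding protein, differed by 1.02 (0.63 without control array 1), Nmi by 0.60 and Cd274, which encodes PD-L1, by -0.50.

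Markers of other cells that the sort could hold were set beside these values. Of all genes, 39.5% had a difference above 0, against which the counts of these lists are to be read. Plasmacytoid dendritic cell markers, of which Bst2, Irf7 and Irf8 are members here, had 4 of 9 genes above 0. Their mean was 6.16 to 6.40 on control and 6.08 to 6.33 on RANKL-deficient arrays, and Siglech, which defines these cells, measured 4.58 to 4.97. Ccr9, a gut-homing receptor on the same list, had the largest difference in it, -1.12 without overlap (SE 0.28, adjusted p = 0.423). Myeloid markers had 5 of 14 genes above 0 and a mean of 4.94 to 5.02 in control and 4.62 to 4.97 in RANKL-deficient cells. On that list Adgre1 differed by -0.54 with overlap and Itgax by 0.39 without. Natural killer markers had 2 of 10 above 0, with means of 4.23 to 4.64 and 4.15 to 4.33. Ncr1 on that list differed by -0.93 without overlap (SE 0.36, limma adjusted p = 0.597), and by -0.49 without control array 2. T cell markers had 3 of 10 above 0, with means of 5.14 to 5.57 and 5.04 to 5.30, and Cd3g had a difference of -1.91 (SE 0.43, adjusted p = 0.408). On the same list Cd3e differed by -0.70 and Cd3d by 0.26, and the adaptor Lat differed by 0.51 without overlap. Epithelial markers had 2 of 12 above 0, with means of 5.13 to 5.41 in control and 4.79 to 5.37 in RANKL-deficient cells. Stromal and endothelial markers had 1 of 10 above 0. Their means, 5.92 to 6.10 in control and 5.71 to 5.80 in RANKL-deficient cells, did not overlap. B cell and ILC2 markers had 4 of 9 and 1 of 6 above 0. The part of these markers in the member differences was not tested.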

How the data were processed

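The authors deposited log2 expression values of 35556 probe sets on 6 arrays, produced, per the submitters' processing notes, by RMA in Affymetrix Expression Console. Versions, settings and build were not given in the sources used here, and the log2 scale was inferred from the values. RMA scales arrays toward the same distribution, so a shift of all genes would not be seen. The gene values still differed in spread between arrays. The SD over genes was 1.86, 1.93 and 1.99 on control arrays 1 to 3, and 2.00 to 2.01 on the RANKL-deficient arrays. The platform annotation named the probe sets, with symbols updated by Entrez identifier against RefSeq (GRCm38.p6). Of them 21789 had 1 symbol, 1621 several and 12146 none, which left 19938 genes, with no filter on low values. In 999 genes with several probe sets, the highest mean was used. The test was limma 3.58.1 under R 4.3.3 (lmFit, eBayes, two-sided, Benjamini-Hochberg over all genes, threshold 0.05). The fit was checked on simulated data. The number of arrays limits the precision. Some items are not reported here. The members and lists were chosen with earlier results of these data known. Values by array are given for members at an unadjusted p under 0.05 and, in each role group, for the smallest p and the highest mean. Pathway lists name the 3 smallest p. Ifnar2, Irf7, Rsad2, Ifit1, Cmpk2, Ifitm3, Psmb8, Ifnb1, Ifng, Cxcr5, Cd4, Ltb, Ccr9, Adgre1, Itgax, Ncr1, Lat, Cd3d, Cd3e and Cd3g were singled out after their values were seen. Alternatives changed the eBayes prior, the scaling, the filter, the probe set, array weights, the replicate block and the arrays used.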

Additional observations from a re-analysis of the deposited data

How the results depend on the processing

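No member passed the adjusted threshold under any of the 17 alternatives. The 6 members at an unadjusted p under 0.05 (11.5%, against 8.15% of all genes) became 10 with shared probe sets allowed (17.9%, against 8.16%), and 5 to 11 when 1 array was left out (9.62% to 21.2%, against 5.70% to 14.1%). Among genes with a mean above that of the median gene, they were 4 of 42 members (9.52%, against 9.21% of those genes), near the background. The 7 members without overlap became 11 with shared probe sets (19.6%, against 14.4% of all genes) and 9 to 14 without 1 array (17.3% to 26.9%, against 22.6% to 35.3%), where fewer arrays make overlap rarer. Shared probe sets were added for the members alone, so the shares of all genes beside those counts were not treated alike. In those counts Igtp and Irgm2 stand for the same probe set, and Gbp4 was read from the one that also names other Gbp genes. The median member difference was 0.060 to 0.13 without 1 array. The count of all genes past the adjusted threshold, 1, became 2 with trend and robust options, 0 with the replicate block, 0 without control arrays 1 and 2 together, and 0 to 1 when 1 array was left out. For the 16 members named by rule, 262 refits kept sign and side of the threshold and 10 turned sign. Over all 52 members, 20 turned sign when some 1 array was left out. B2m went to 0.041 after median centring, 0.0033 without control array 1, 0.013 without RANKL-deficient array 1 and 0.032 with control arrays 1 and 2 both out, and leaving out 1 array gave -0.042 to 0.013. Samhd1 went to -0.052 after quantile normalization and -0.032 after cyclic loess. Ddx58 went to 0.13 without control array 3 and 0.085 without RANKL-deficient array 3 (range -0.28 to 0.13), Irf2 to 0.023 without RANKL-deficient array 3 (range -0.31 to 0.023), and Trim30a to -0.016 without control arrays 1 and 2. The cause of these turns was not tested. For same-numbered arrays, deviations from the group means correlated at -0.023, 0.050 and 0.027 over genes, and for other pairs at -0.058 to 0.026. Values near 0 cannot show that the numbers do not pair samples, and the labels do not state pairing. With the replicate block, 7 members (13.5%, against 8% of all genes) were at an unadjusted p under 0.05. A single control array left by leaving out control arrays 1 and 2 was assumed to vary like the others. No depth is measured on arrays, and weak probe sets limit what can be read of the Ifit, Mx and Oas genes.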
